A study of Drosophila melanogaster with 22 samples.

Results

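Mushroom body neuroblasts are the stem cells of the fly brain that give rise to the Kenyon cells of the mushroom body, the centre for olfactory learning. The data here are 3 RNA-seq libraries of these cells that carry the label of 3 washes, set against the 3 mushroom body libraries with no handling label, called standard. These 6 of the 22 libraries in the series were chosen by their column in the count table, with no measured value used. All 15339 genes of that table were taken, of which 13408 had a count in the 6 libraries. Another 3 mushroom body libraries, labelled with a wait of 2 h, entered the same fit and is given beside the washed libraries where it bears on them.

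In all 3 groups the neuroblasts were from Drosophila larvae 50 h after hatching, raised at 25 °C and matched for age at hatching. Brains of 30 larvae were digested for 30 min with pronase and dispase, washed and triturated, and GFP-labelled cells were collected 10 at a time by a robotic sorter. RNA of 89 to 108 pooled cells per library was amplified before library construction. The shared protocol names a wash for every group, and the sources used here do not give what the 3 washes added to it or when they were done. Nor do they give fly genotypes, the driver of the GFP label or the temperature of the wait. Nothing says that the replicates came from separate dissections, so the p-values measure the spread between these libraries, which may be technical.

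Ribosomal protein genes encode the proteins of the large and small ribosomal subunits, and in growing cells they are expressed together at high level. Heat shock proteins are chaperones whose genes are switched on within minutes by the factor Hsf when cells are heated or otherwise stressed. Neuroblast identity is held by a network of transcription factors of the Snail, Hes and proneural families, in which the E(spl) genes are direct targets of the Notch receptor.

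The washed libraries were deeper than the standard libraries and held more RNA per cell against the spike-in. Gene counts were 3150371, 3690269 and 4161921 in the standard libraries and 5796232, 6580633 and 14282246 in the washed ones, the last being washed replicate 3. ERCC transcripts, synthetic RNAs added in equal volume to each library, gave 1.55, 1.04 and 1.26 gene counts per ERCC count and cell in the standard libraries and 2.38, 2.24 and 2.22 in the washed ones. The washed libraries were all higher, by 0.85 on the log2 scale or 1.80-fold (exact two-sided permutation p = 0.1, the smallest that 20 splits of 3 against 3 allow). Values were 2.31, 2.02 and 1.91 in pooled, 2.20, 1.85 and 2.12 in antennal lobe and 6.71, 2.72 and 2.50 in type II neuroblasts. The standard libraries lay below all of these groups, in gene counts as well, so a high value was not particular to the washed libraries. Reads outside annotated genes came to 9.04, 8.89 and 9.07% of all counts in the standard libraries and 11.3, 9.94 and 11.1% in the washed ones, a difference of 1.80 percentage points (exact two-sided permutation p = 0.1). Detected genes were 547 more in the washed libraries (exact permutation p = 0.1), and 12.3 more once every library was thinned to 3150371 counts (exact permutation p = 0.9). Replicates of the standard and washed groups correlated at 0.939 to 0.943 on log CPM.

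**Figure D1:**
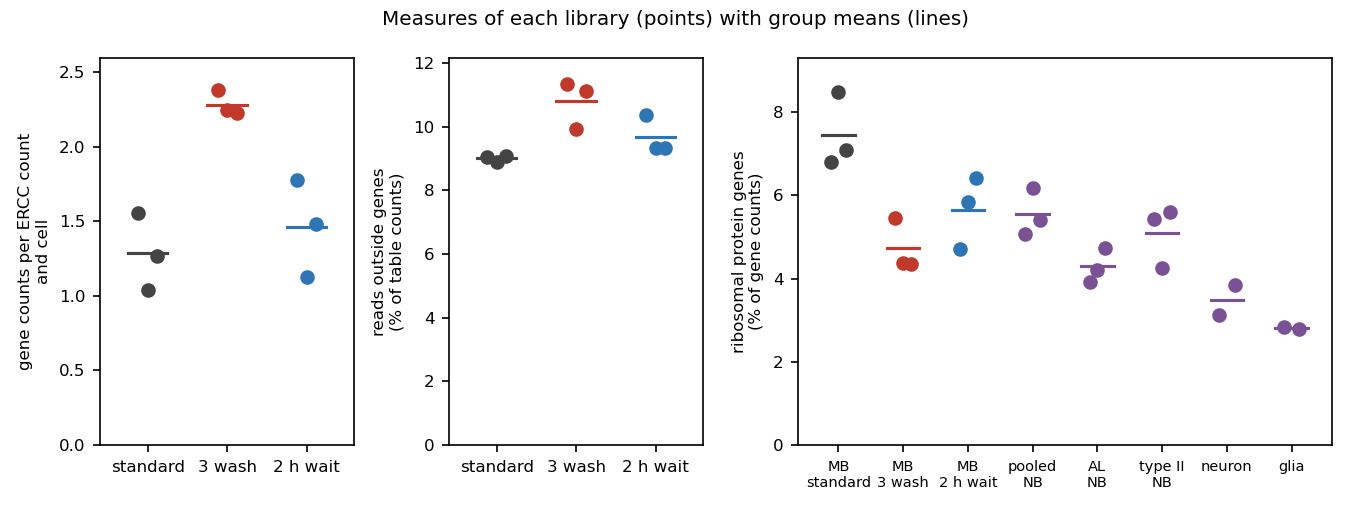
Measures of single libraries (points) with group means (lines): gene counts per ERCC count and cell (left), reads outside genes as a percentage of the counts in the table (middle) and ribosomal protein genes as a percentage of gene counts in all 8 groups (right). The 3 washed libraries lie at 2.22 to 2.38 in the left panel, above the standard libraries at 1.04 to 1.55, and at 4.36 to 5.46% in the right panel, below the standard libraries at 6.81 to 8.48%.

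The main change was a lower share of ribosomal protein transcripts, beside lower relative levels of 4 heat shock genes and higher relative levels of a small set of neuroblast regulators. Of 8766 genes tested, 59 were lower in the washed libraries (0.673%) and 14 were higher (0.16%) at an adjusted p below 0.05, from edgeR's quasi-likelihood test with Benjamini-Hochberg adjustment. At an unadjusted p below 0.05 there were 718 genes, and the median log2 change over all genes was 0.01. Of the 59 lower genes, 46 encode cytoplasmic ribosomal proteins. Libraries of the 2 groups did not overlap for all 59 lower genes and for 13 of the 14 higher genes. Over all genes tested, 7.83% had every washed library below every standard library and 6.97% had every one above. Genes named below for the largest changes had to show no overlap to be named. Their separation between the groups therefore adds no support to the calls.

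These counts rest on few libraries and on the test used. With limma on log2(TPM + 1) 0 genes were called in either direction, and a fit of all 22 libraries called 0 higher and 2 lower. Without washed replicate 2, 2 genes were higher and 5 lower, and without washed replicate 3, 4 were higher and 2 lower. Leaving out standard replicate 2 left 0 higher genes and 11 lower ones, with 567 genes at an unadjusted p below 0.05. Leaving out standard replicate 1 gave 9 and 48, leaving out standard replicate 3 gave 10 and 21, and leaving out washed replicate 1 gave 18 and 76. Scaling by ERCC counts and cell number moved the median of all genes to 0.77, with 2126 genes higher and 8 lower. Because that scaling raised the median of all genes, the 14 higher genes were bound to stay above 0, and they did. Their staying there therefore adds no support. Of the 59 lower genes, 31 stayed below 0. The changes given from here on are relative to the other genes of a library.

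**Figure D2:**
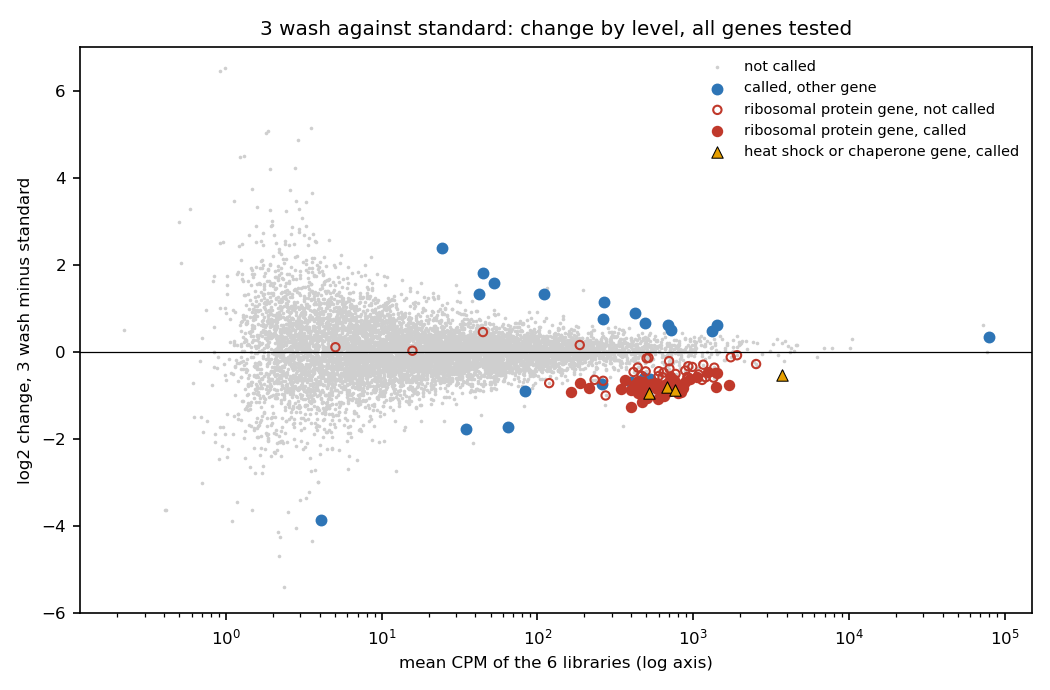
Log2 change in the washed against the standard libraries (vertical axis) by the mean level of the 6 libraries in CPM (horizontal log axis) for the 8766 genes tested. Of 84 ribosomal protein genes (red) 80 lie below 0 and 77 at or above 200 CPM, with a median of -0.66 (0.13 with ERCC scaling), and the 4 called heat shock and chaperone genes (triangles) lie with them.

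Transcripts of 46 cytoplasmic ribosomal protein genes fell relative to other transcripts, and the median of the group turned positive with ERCC scaling. Of 88 annotated ribosomal protein genes, 2 had no count in these libraries and 84 were tested. Of those tested, 46 were lower and 0 higher in edgeR's test, and at an unadjusted p below 0.05 the counts were 74 and 0. DESeq2 called 59 lower and 0 higher, and limma on log2(TPM + 1) called 0 in either direction. The median log2 change was -0.66 against 0.01 for all genes tested. With ERCC scaling the ribosomal median became 0.13 against 0.77 for all genes, which placed it 0.65 below that median in place of 0.67. Together these genes took 6.81, 8.48 and 7.09% of gene counts in the standard libraries and 5.46, 4.36 and 4.36% in the washed ones, a difference of -2.73 percentage points (exact two-sided permutation p = 0.1).

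Ribosomal protein genes are abundant, and abundant genes are easier to call. Among the 787 genes with a mean of at least 200 CPM, 44 of 77 ribosomal protein genes were lower, while 9 of the 710 others were (1.27%). The 710 others had a median log2 change of 0.05, against -0.66 for the 77. Without washed replicate 2 or without washed replicate 3, 2 ribosomal protein genes were called, without standard replicate 2 there were 6, and without standard replicate 3 there were 17. The group's median relative to all genes ran from -0.75 to -0.60 over the 6 fits that left out a library.

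RpLP2 encodes an acidic protein of the ribosomal stalk, the part of the large subunit that recruits elongation factors (FBgn0003274, chromosome 2R, 12473639 to 12474237 in dm3). It stood at 571.7, 744.5 and 615.7 CPM (counts scaled to a common library size by TMM) in the standard libraries and at 345.5, 249.7 and 280.5 in the washed ones. Every washed library was below every standard library. The log2 change was -1.14 ± 0.16 (SE, adjusted p = 0.00240), a level 45.3% of the standard mean, and the call held in all 6 fits that left out a library.

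RpLP1, which encodes the other acidic stalk protein, fell by 1.09 ± 0.23 on the log2 scale (adjusted p = 0.0473), a call that was lost in 5 of the 6 fits without a library and held only without washed replicate 1. RpL18, a core protein of the large subunit, had the largest fall of the ribosomal protein genes tested, from 465.3, 702.6 and 516.2 CPM to 297.2, 200.8 and 205.1. Its log2 change was -1.26 ± 0.20 (adjusted p = 0.00616), with adjusted p of 0.0603 without washed replicate 2 and 0.0531 without washed replicate 3. RpL35, at 559.2, 671.2 and 632.0 CPM in the standard and 360.1, 312.2 and 335.3 in the washed libraries, changed by -0.89 ± 0.13 (adjusted p = 0.00240). Like RpLP2, RpL35 kept its call in all 6 such fits.

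RpL26, RpL31 and RpL32 fell by 0.95, 0.82 and 0.84 on the log2 scale, each with adjusted p = 0.00616 and with no overlap between the groups. RpL7A and RpL23 fell by 1.05 (adjusted p = 0.00702) and 1.00 (adjusted p = 0.0127). All 5 encode large subunit proteins, and RpL32 is better known as rp49, a gene widely used to normalize fly expression data. The calls of these 5 genes were lost without washed replicate 2 (adjusted p 0.0603 to 0.140) and without washed replicate 3 (0.0531 to 0.0972), and for RpL7A, RpL23 and RpL26 also without standard replicate 2 (0.0590 to 0.103).

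In the small subunit the falls were led by RpS9, RpS23 and RpS14b. RpS9 went from 893.2, 1251 and 1034 CPM to 638.9, 507.9 and 496.4, a log2 change of -0.95 ± 0.18 (adjusted p = 0.0150). RpS23, a protein at the decoding centre, changed by -0.93 ± 0.17 (adjusted p = 0.00789). RpS14b changed by -0.93 ± 0.20 (adjusted p = 0.0231), and its near-identical copy RpS14a can share reads with it, so the split between them is uncertain. These 3 calls were lost without washed replicate 2, without washed replicate 3 and without standard replicate 2 (adjusted p 0.0701 to 0.244), and those of RpS9 and RpS14b also without standard replicate 3 (0.0514 and 0.0714).

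Large subunit genes were called more often, 33 of 48 tested with a median of -0.73, than small subunit genes, 13 of 36 with a median of -0.57. That difference between the subunits was not tested. Of the 84 tested genes, 80 had a negative log2 change and 70 had every washed library below every standard one, against 7.83% of all genes. The 4 positive ones were RpL38, RpS15Ab, RpS5b and RpS19b, chosen here after their values were seen. RpS15Ab stood at 37.1, 34.5 and 41.3 CPM and at 56.7, 50.9 and 47.6 after the washes, a log2 change of 0.46 ± 0.24 (adjusted p = 0.665). RpL38 had 185.7, 176.0 and 167.7 CPM against 197.5, 249.3 and 145.5, groups that overlap, and its change of 0.16 ± 0.22 did not pass (adjusted p = 0.937). RpS5b and RpS19b, paralogs of RpS5a and RpS19a, were at low level, with means of 4.83 and 15.6 CPM in the standard libraries.

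**Figure D3:**
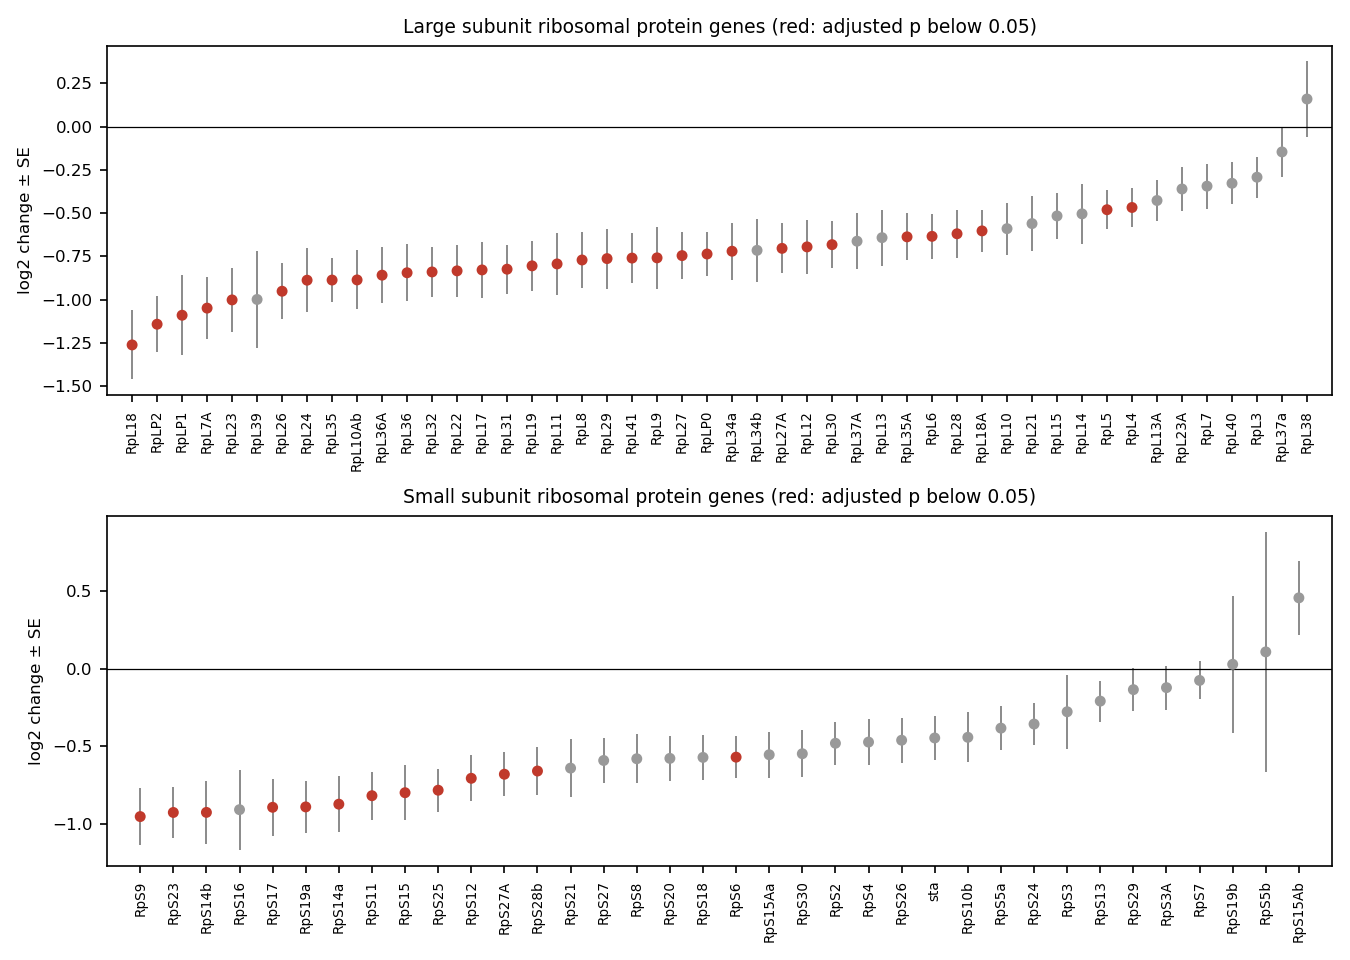
Log2 change with its standard error for each tested ribosomal protein gene of the large subunit (48 genes, top) and the small subunit (36 genes, bottom), ordered by change. Red points passed an adjusted p of 0.05: 33 in the large and 13 in the small subunit, all below 0, whereas with ERCC scaling none of them passed as lower.

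Other genes of the translation machinery gave no call. Of 74 mitochondrial ribosomal protein genes tested 0 were called, with a median log2 change of -0.15, and of 31 translation factors 0 were called, with a median of -0.17. At an unadjusted p below 0.05 the first list had 2 higher and 2 lower members and the second 0 higher and 5 lower, and DESeq2 called 0 in both. Among 15 genes of the nucleolus and of ribosome production 0 were called by edgeR and by DESeq2, 2 were lower at an unadjusted p below 0.05, and the median was -0.09. Every washed library lay below every standard one for 8 of the 74, 7 of the 31 and 4 of the 15, against 7.83% of all genes. Each of these negative medians became positive with ERCC scaling, at 0.60, 0.63 and 0.68, all below the 0.77 of all genes. Nacalpha, a subunit of the complex that meets nascent chains at the ribosome, was lower, with 543.4, 593.8 and 604.4 CPM against 448.4, 334.2 and 362.8 (log2 change -0.61 ± 0.14, adjusted p = 0.0311; 0.17 with ERCC scaling).

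Median changes differed between bins of gene length. Joined exon lengths of the BDGP6 annotation could be matched for 95.21% of tested genes and for 79 of the 84 ribosomal protein genes, whose median was 927 bases against 2144 for all. Without ribosomal protein genes, the median log2 change was -0.07 for 141 genes under 500 bases, -0.11 for 962 genes from 500 to under 1000 bases and 0.07 for 1792 genes of 4000 bases or more. At a mean of at least 200 CPM the values were -0.24 for 24 genes and 0.09 for 357 genes in those bins. Ribosomal protein genes stood lower than others in the same bins, at -0.68 for 43 genes from 500 to under 1000 bases and -0.57 for 31 genes from 1000 to under 2000 bases. The part of length in the ribosomal result beyond these values was not tested.

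**Figure D4:**
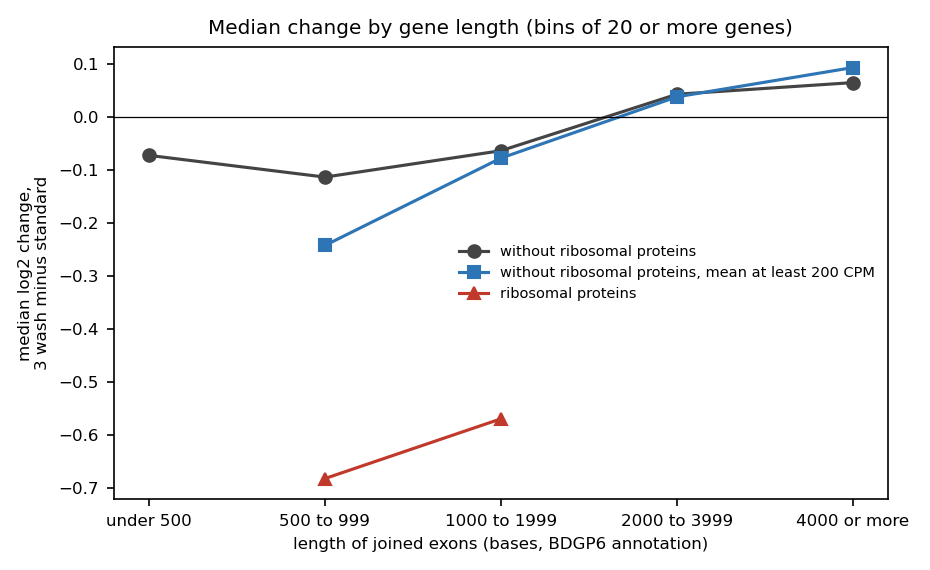
Median log2 change in the washed against the standard libraries (vertical axis) by length of the joined exons in bases (horizontal axis), for bins of 20 or more genes. The median of genes other than ribosomal protein genes is -0.07 under 500 bases, -0.11 at 500 to under 1000 bases and 0.07 at 4000 bases or more, and ribosomal protein genes lie at -0.68 and -0.57 in their 2 bins, where all values are relative to the other genes of a library.

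Transcripts of 4 heat shock and chaperone genes were lower after the washes relative to other transcripts, and with ERCC scaling none of the 4 was called. With that scaling 1 other member of the list was called lower. Of 37 heat shock and chaperone genes, 30 were tested, 4 were lower and 0 higher in edgeR's test, with a median log2 change of -0.23 that became 0.52 with ERCC scaling. Over all genes tested 0.673% were lower, and 1.27% of the genes other than ribosomal protein genes with a mean of at least 200 CPM. Hsp26, among the 4, was given for this comparison. At an unadjusted p below 0.05, 9 were lower and 0 higher, DESeq2 called 5 and 0, and limma and the fit of 22 libraries called 0 lower. Without washed replicate 3, 0 of the list were called by edgeR, and 1 was called without washed replicate 2, standard replicate 1 or standard replicate 3.

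Hsp26 encodes a small heat shock protein (FBgn0001225, chromosome 3L, 9369518 to 9370475 in dm3). It stood at 1078, 811.2 and 1089 CPM in the standard and 562.1, 571.0 and 496.3 in the washed libraries, with no overlap. The log2 change was -0.87 ± 0.15 (adjusted p = 0.00616), which became -0.79 with adjusted p = 0.0531 without washed replicate 3 and -0.13 with ERCC scaling. Hsp23, another small heat shock gene close by (3L, 9374982 to 9375830), went from 946.1, 721.8 and 936.8 CPM to 492.6, 470.3 and 535.3. Its change of -0.80 ± 0.17 (adjusted p = 0.0258) lost its call in each of the 6 fits that left out a library, with adjusted p up to 0.210, and was -0.05 with ERCC scaling.

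DnaJ-1, a co-chaperone of Hsp70, fell from 702.6, 531.5 and 806.6 CPM to 409.1, 353.7 and 301.0, a log2 change of -0.94 ± 0.19 (adjusted p = 0.0165; -0.19 with ERCC scaling). Hsp83, the fly Hsp90, had 4323, 3970 and 4833 CPM against 3324, 3022 and 2821, a change of -0.52 ± 0.11 (adjusted p = 0.0191) that turned to 0.24 with ERCC scaling. Both sets of libraries were apart in each case. DnaJ-1 and Hsp83 each lost the call in 4 of 6 fits, those without washed replicate 2, washed replicate 3, standard replicate 1 and standard replicate 3.

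The strongly heat-inducible genes varied more between libraries. Hsp68 had 635.2, 355.8 and 637.7 CPM in the standard and 240.0, 151.0 and 112.6 in the washed libraries, so the groups were apart, but its log2 change of -1.70 ± 0.45 did not pass (adjusted p = 0.262). Hsp70Bc, 1 of several near-identical Hsp70 copies that can share reads, had 72.0, 18.9 and 69.2 CPM against 21.2, 19.8 and 5.41, with overlap, and a change of -1.81 ± 0.62 (adjusted p = 0.371). The constitutive cognate Hsc70-4 stood at 6519, 6398 and 7351 CPM and at 7420, 7272 and 6890, a change of 0.09 ± 0.09 (adjusted p = 0.894). Hsromega, a heat-inducible noncoding RNA, overlapped between the groups as well, with a change of 0.03 ± 0.20 (adjusted p = 0.987). Hsp27, another small heat shock gene, overlapped too, with a change of -0.26 ± 0.13 (adjusted p = 0.621). Early response and JNK pathway genes gave 0 calls among 23 tested by edgeR and by DESeq2, with 0 at an unadjusted p below 0.05, a median log2 change of -0.12 and 0.63 with ERCC scaling.

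**Figure D5:**
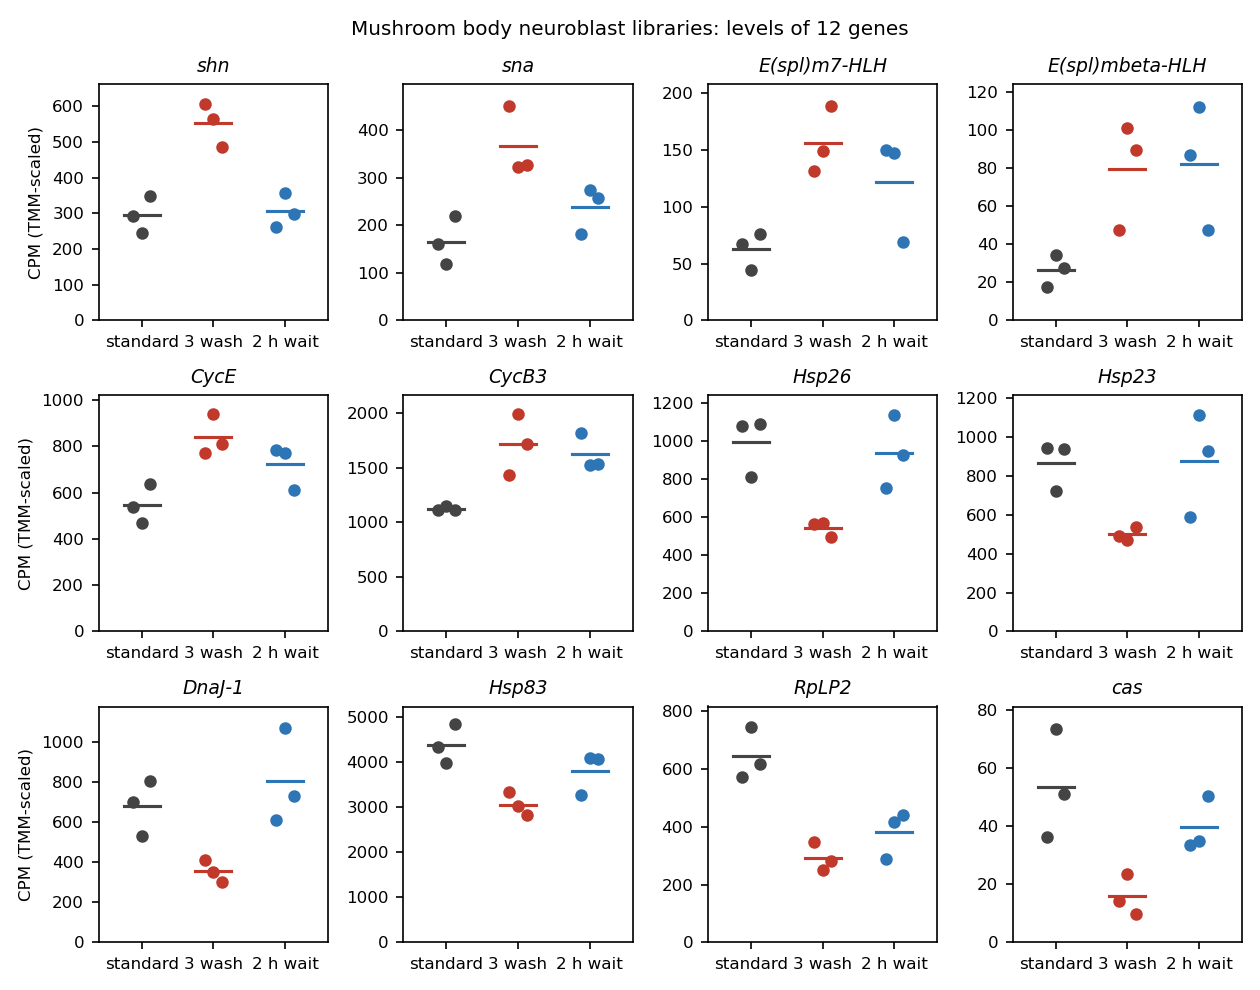
Levels of 12 genes in CPM in each mushroom body library (points) with group means (lines), each panel with its own axis from 0. For shn the 3 washed libraries lie at 486.9 to 605.7 CPM and both other groups at or below 357.5, while for Hsp26 they lie at 496.3 to 571.0 CPM and all others at or above 751.0.

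In the list of 19 neuroblast identity factors, 3 rose and 1 fell, where 0.16% of all genes tested rose and 0.673% fell. Of these 19, all tested, sna, E(spl)m7-HLH and E(spl)mbeta-HLH were higher and cas was lower, and the median log2 change of the list was 0.32 (1.07 with ERCC scaling). Without washed replicate 2 or without washed replicate 3, 1 of the list was called higher, and without standard replicate 2 there were 0 (9 were higher at an unadjusted p below 0.05 with all libraries, DESeq2 called 3, and limma and the fit of 22 libraries called 0).

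The Snail family zinc finger gene sna (chromosome 2L, 15476593 to 15478269) stood at 159.9, 117.7 and 219.5 CPM in the standard libraries and at 450.7, 322.0 and 326.0 in the washed ones. The groups did not overlap, and the log2 change was 1.14 ± 0.20 (adjusted p = 0.00789). It lost the call without standard replicate 2 (0.95, adjusted p = 0.0595). Its relative wor had 506.0, 482.2 and 714.2 CPM against 1034, 633.4 and 702.5, with overlap and a change of 0.48 ± 0.17 (adjusted p = 0.341). A further family member, esg, changed by 0.32 ± 0.37 (adjusted p = 0.923).

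The E(spl) genes encode Hes-type repressors that Notch switches on in neuroblasts. E(spl)m7-HLH rose from 67.5, 44.2 and 76.3 CPM to 131.1, 148.8 and 188.7, a log2 change of 1.32 ± 0.26 (adjusted p = 0.0145). E(spl)mbeta-HLH rose from 17.6, 34.2 and 27.4 CPM to 47.8, 100.9 and 89.5, a change of 1.58 ± 0.32 (adjusted p = 0.0167). Both genes were apart between the groups, and both lost the call without washed replicate 2, washed replicate 3 or standard replicate 2, E(spl)mbeta-HLH also without standard replicate 1 or 3. E(spl)mgamma-HLH, the member most used as a neuroblast Notch reporter, had 124.9, 78.4 and 118.8 CPM against 138.2, 322.2 and 398.1, and its change of 1.42 ± 0.40 did not pass (adjusted p = 0.278). E(spl)m8-HLH changed by 1.47 ± 0.41 (adjusted p = 0.218).

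Of 11 E(spl) genes, a set put together after their values were seen, 10 were tested, 2 rose and 1 fell. The median log2 change was 1.31, with 7 of 10 positive and 5 with every washed library above every standard one, against 6.97% of all genes. The one that fell, E(spl)m6-BFM, encodes a Bearded-family protein and not a repressor of the Hes type, and it is named although its level lies under the 20 CPM of the naming rule. It had 10.0, 7.92 and 4.89 CPM, or 84 counts in all, in the standard libraries and 0.702, 0.159 and 0.624 CPM, or 14 counts, in the washed ones (log2 change -3.86 ± 0.89, adjusted p = 0.0344). DESeq2 did not call it. The proneural gene l(1)sc, a regulator outside the list of 19, was also called, with a change of 1.82 ± 0.41 (adjusted p = 0.0418), but its libraries overlapped, at 34.7, 9.45 and 15.4 CPM against 89.2, 32.5 and 85.9.

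The temporal factor cas, a zinc finger gene of the series that neuroblasts express in turn as they age, was lower (chromosome 3R, 1538664 to 1543022). It stood at 36.2, 73.3 and 51.1 CPM in the standard and 14.4, 23.6 and 9.78 in the washed libraries, a level 29.8% of the standard mean. Its log2 change was -1.76 ± 0.35 (adjusted p = 0.0127), with adjusted p of 0.101 without washed replicate 3 and 0.149 without standard replicate 2. Other neuroblast genes did not pass the test. Of these dpn changed by 0.37 ± 0.12 (adjusted p = 0.260), with the 3 washed libraries above the standard ones, ase by 0.02 ± 0.19 (adjusted p = 0.989) and dm, the fly Myc gene, by 0.03 ± 0.24 (adjusted p = 0.989).

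Genes of the mushroom body lineage gave no call. Of 11 lineage factors tested 0 were called by edgeR and by DESeq2, 1 was higher at an unadjusted p below 0.05, and the median log2 change was 0.23 with all 11 values positive. The eyeless gene ey, which marks this lineage, stood at 115.2, 112.4 and 130.0 CPM against 106.2, 149.0 and 125.8 (log2 change 0.09 ± 0.19, adjusted p = 0.972). Imp, an RNA-binding protein that is high in young neuroblasts, had 10160, 8172 and 10030 CPM against 12110, 11890 and 10960, all 3 washed libraries being higher, and a change of 0.30 ± 0.09 (adjusted p = 0.223). Its partner in temporal identity, chinmo, changed by 0.25 ± 0.15 (adjusted p = 0.735), with overlap.

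In the BMP and activin pathway shn was the one gene called of 16 tested, where 0.16% of all genes tested were higher. Because shn was given for this comparison and the list was chosen with earlier results known, that count says nothing about the pathway. The gene shn encodes a large zinc finger protein that joins Mad and Medea at DNA and silences the repressor gene brk (FBgn0003396, chromosome 2R, 7092134 to 7104899). Its level was 293.3, 244.9 and 348.5 CPM in the standard and 605.7, 564.3 and 486.9 in the washed libraries. Every washed library was higher, with a log2 change of 0.90 ± 0.15 (adjusted p = 0.00616), and adjusted p of 0.0569 without washed replicate 2 and 0.0590 without standard replicate 2.

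Its target brk, the repressor of BMP target genes, had 76.0, 71.3 and 60.6 CPM against 156.1, 141.8 and 92.7, also without overlap, and missed the threshold (log2 change 0.91 ± 0.22, adjusted p = 0.0558). DESeq2 called 2 genes of the pathway higher and limma 0. The receptors tkv, sax, put, babo and wit, the ligands dpp, gbb, daw and Actbeta and the transducers Mad, Med and Smox were not called, with adjusted p from 0.678 to 0.999. Of the 16 genes 15 had a positive change, and the median was 0.30 (1.04 with ERCC scaling).

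Of 53 cell cycle genes tested 2 rose and 0 fell in edgeR's test, with a median log2 change of 0.04, where 0.16% of all genes rose and 0.673% fell. Of the 53, 28 had a positive and 25 a negative change. Every washed library lay above every standard one for 8 of them and below for 8, against 6.97% and 7.83% of all genes. At an unadjusted p below 0.05, 5 were higher and 3 lower, DESeq2 called 3 higher and 0 lower, and limma and the fit of 22 libraries called 0 higher. CycE, the cyclin of the G1 to S transition, went from 538.8, 468.2 and 637.7 CPM to 771.2, 938.8 and 812.4 (log2 change 0.62 ± 0.14, adjusted p = 0.0270). CycB3, a mitotic cyclin, went from 1115, 1148 and 1113 CPM to 1432, 1997 and 1715 (log2 change 0.61 ± 0.12, adjusted p = 0.0138). Both were apart between the groups. Neither was called without washed replicate 2, washed replicate 3 or standard replicate 2, nor CycE without standard replicate 1 and CycB3 without standard replicate 3.

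The other cyclins did not pass. CycA changed by 0.04 ± 0.11 (adjusted p = 0.980) and CycB by 0.32 ± 0.18 (adjusted p = 0.682), both with overlapping libraries. CycD changed by 0.45 ± 0.24 (adjusted p = 0.680), and the S phase gene RnrS by 0.50 ± 0.14 (adjusted p = 0.114), both with every washed library above every standard one. Asymmetric division genes gave 0 calls of 21 by edgeR and by DESeq2, with 3 higher at an unadjusted p below 0.05. Of these, pros, a factor that is passed to the daughter cell, had 1403, 1104 and 1397 CPM against 1790, 1652 and 1601 (log2 change 0.37 ± 0.11, adjusted p = 0.214).

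Several other genes rose. CG10970, for which no role is given here, had the largest rise of the 14 higher genes, from 10.0, 4.34 and 9.29 CPM to 37.0, 68.0 and 18.4 (log2 change 2.38 ± 0.49, adjusted p = 0.0162). Tab2, an adaptor of the kinase Tak1 in immune and JNK signalling, rose from 30.7, 26.3 and 14.9 CPM to 61.3, 60.7 and 57.1 (1.32 ± 0.29, adjusted p = 0.0248). PsGEF, a guanine nucleotide exchange factor, rose from 207.3, 171.6 and 212.9 CPM to 339.2, 384.8 and 271.3 (0.75 ± 0.15, adjusted p = 0.0160). For these 3 the washed libraries all lay above the standard ones, and all 3 calls were lost without washed replicate 2 or standard replicate 2, with those of CG10970 and Tab2 also lost without standard replicate 3 and that of Tab2 without washed replicate 1 or 3.

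The RNA-binding protein genes msi and yps rose by 0.51 ± 0.12 (adjusted p = 0.0411) and 0.48 ± 0.11 (adjusted p = 0.0337). Both calls were narrow: that of msi was lost in each of the 6 fits without a library and that of yps in 5 of the 6, those other than without washed replicate 1. msi encodes Musashi, a translational repressor in neural precursors, and yps a Y-box protein that binds mRNA. The noncoding gene CR43283 (chromosome 3R, 7073825 to 7081845), which holds 6.69 to 8.84% of gene counts in these 6 libraries, rose by 0.35 ± 0.07 (adjusted p = 0.0174), and its neighbour CR31386 (3R, 7095137 to 7131330), also noncoding, by 0.68 ± 0.14 (adjusted p = 0.0183). CR31386 had 359.5, 330.0 and 444.3 CPM against 544.6, 649.7 and 616.7, with no overlap. Both calls were lost without washed replicate 2, washed replicate 3 or standard replicate 2, and that of CR31386 also without standard replicate 1. The other genes with the most counts are annotated as ribosomal RNA, and neither CR41602, with a change of 0.00 ± 0.08 (adjusted p = 1.00), nor CR40677, with 0.63 ± 0.24 (adjusted p = 0.512), was called.

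Beyond the ribosomal, chaperone and regulator genes, 7 genes fell, with Nacalpha described above among them. CG32037, for which no role is given here (chromosome 3L, 9482602 to 9485315), went from 110.6, 101.4 and 85.3 CPM to 25.3, 44.7 and 21.1, a log2 change of -1.71 ± 0.29 (adjusted p = 0.00616; 0.0531 without washed replicate 3). Of the 59 lower genes it was 1 of 2 still called with ERCC scaling, at -0.97 (adjusted p = 0.0331), the other being E(spl)m6-BFM. The cofilin gene tsr, whose protein severs actin filaments, went from 636.4, 653.8 and 628.6 CPM to 479.3, 360.4 and 414.8 (-0.61 ± 0.14, adjusted p = 0.0311). Of 13 genes for actin and tubulin, tsr was the one lower, where 0.673% of all genes tested were lower. Among genes other than ribosomal protein genes with a mean of at least 200 CPM the share was 1.27%. Its change was 0.16 with ERCC scaling, and its call was lost in 5 of the 6 fits without a library, those other than without washed replicate 1.

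The remaining lower genes lie outside the naming rule. They were chb, the fly CLASP of microtubule ends, at -0.68 ± 0.14 (adjusted p = 0.0163), FK506-bp1, a prolyl isomerase, at -0.75 ± 0.14 (adjusted p = 0.00765), Neb-cGP at -0.89 ± 0.21 (adjusted p = 0.0416) and the small nuclear RNA snRNA:7SK, which holds the elongation factor P-TEFb inactive, at -0.73 ± 0.16 (adjusted p = 0.0238). With ERCC scaling chb stood at 0.05, FK506-bp1 at 0.02, snRNA:7SK at 0.05 and Neb-cGP at -0.10.

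Markers of other cell types showed no called gene in either direction. The neuroblast markers dpn, wor, ase, mira and insc summed to 1473 to 1801 CPM in the standard and 1749 to 2235 in the washed libraries, and the mushroom body markers ey, toy, tll, retn and Rx to 1098 to 1267 and 1185 to 1340. The progeny markers nerfin-1, dap and pros summed to 1126 to 1446 and 1636 to 1816, which do not overlap, with pros giving most of the sum. The other progeny markers overlapped, nerfin-1 at 20.9 ± 19.0 and 19.6 ± 6.42 CPM (log2 change -0.10) and dap at 11.6 ± 6.94 and 12.4 ± 2.30 (0.10). The 6 markers each of neurons (365 to 480 against 454 to 490 CPM), glia (504 to 519 against 342 to 545), fat body (26.6 to 38.9 against 25.5 to 38.3) and muscle (20.9 to 45.6 against 31.1 to 42.3) overlapped, as did 7 of blood cells (43.2 to 63.5 against 42.0 to 71.3). None of these markers was at 0 in all 6 libraries. Of the neuron markers, elav had 293.6, 230.4 and 264.7 CPM in the standard and 308.3, 345.9 and 344.9 in the washed libraries. Its washed libraries were all higher, without a call (log2 change 0.34 ± 0.14, adjusted p = 0.442), while n-syb, brp, cpx, Syt1 and CadN overlapped. Of the glial markers, Eaat1 and nrv2 gave nearly all of the sum, at 206 ± 22.8 and 294 ± 23.9 CPM in the standard and 188 ± 47.1 and 255 ± 53.1 in the washed libraries (SD, n = 3). The other 4 were near the limit of detection: moody had 2.13, 3.07 and 13.2 CPM against 1.76, 0.792 and 0.277, without overlap (log2 change -2.74 ± 1.10, adjusted p = 0.444). Mean levels in the standard and washed libraries were 1.35 and 2.55 CPM for Gs2, 1.51 and 2.03 for wrapper and 1.30 and 0.322 for repo, which was too low to be tested. In bulk samples fewer cells of a type and less RNA per cell cannot be told apart, and the part of pros in the changes above was not tested.

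In 19 of the 25 gene lists with members 0 genes were called by edgeR, with 42 list members at an unadjusted p below 0.05 and 1 called by DESeq2, a lower gene of oxidative phosphorylation. That list of 24 genes had a median log2 change of -0.22, with 1 higher and 7 lower at an unadjusted p below 0.05, and 0.56 with ERCC scaling. Glycolysis genes had a median of 0.05, proteasome genes -0.11, genes of oxidative stress -0.12, genes of folding in the endoplasmic reticulum -0.09 and genes of hnRNPs and splicing 0.04. With ERCC scaling these 5 medians were all positive, between 0.65 and 0.84.

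The libraries with a wait of 2 h are the other handled group, and their comparison with the standard libraries shares those controls with the one above. Ribosomal protein genes had a median log2 change of -0.39 in the waiting against the standard libraries, with 0 called, and of -0.26 in the washed against the waiting ones, with 0 called. Their share of gene counts after the wait was 5.65 ± 0.860% (SD, n = 3), between the 7.46 ± 0.895% of the standard and the 4.73 ± 0.632% of the washed libraries. RpLP2 stood at 289.1, 415.5 and 440.5 CPM after the wait, overlapping the washed libraries and below the standard ones. The washed libraries held 2.28 ± 0.0831 gene counts per ERCC count and cell and the waiting ones 1.46 ± 0.324, a log2 difference of 0.67 (exact two-sided permutation p = 0.1).

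Set directly against the waiting libraries, 3 of 8766 genes were called in either direction (0.0342%), with 603 at an unadjusted p below 0.05. They were DnaJ-1 (log2 change -1.18, adjusted p = 0.0388), Hsp26 (-0.79, adjusted p = 0.0474) and shn (0.85, adjusted p = 0.0472). After the wait Hsp26 stood at 751.0, 1135 and 926.0 CPM, DnaJ-1 at 611.7, 1072 and 732.7 and shn at 261.9, 357.5 and 298.1. All 3 genes had every washed library apart from every waiting and every standard library, a separation favoured in genes called in both comparisons. The 3 calls were near the threshold: with RLE size factors 0 genes were called (adjusted p 0.0505 to 0.0644), DESeq2 called 18 genes with these 3 among them, and 0 were called in 5 of the 6 fits that left out a washed or waiting library. Without waiting replicate 1, 10 genes were called, with DnaJ-1 and Hsp26 but not shn among them. With ERCC scaling 598 genes were called, 597 of them higher. There shn kept its call (1.52, adjusted p = 0.000351), while DnaJ-1 (-0.48, adjusted p = 0.187) and Hsp26 (-0.11, adjusted p = 0.795) lost theirs.

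Of the 73 genes called between washed and standard libraries, 71 changed in the same direction in the waiting against the standard libraries. Both comparisons subtract the same 3 standard libraries, on which the 73 genes were also selected. That favours the same direction, so the count adds no support, and the share over all genes is not given here. Of the higher genes, E(spl)mbeta-HLH, E(spl)m7-HLH, l(1)sc, CycE, CycB3, yps and CR31386 overlapped between washed and waiting libraries. Besides shn, the washed libraries lay above all waiting ones for sna, Tab2, PsGEF, CG10970, msi and CR43283, without a call. These genes were selected as high in the same washed libraries, which favours such separation. Its share over all genes is not given here, so it adds no support. The E(spl) set had a median of 0.82 in the waiting against the standard libraries. E(spl)mbeta-HLH stood at 86.7, 112.2 and 47.8 CPM after the wait (washed minus waiting -0.05, adjusted p = 0.989), CycB3 at 1818, 1524 and 1533 (0.08, adjusted p = 0.944) and CycE at 785.8, 770.0 and 611.1 (0.22, adjusted p = 0.820). CG32037 was lower in the waiting than in the standard libraries (-2.06, adjusted p = 0.00314), at 16.7, 23.4 and 31.2 CPM, and so was chb (-0.96, adjusted p = 0.00314). These were the 2 genes called in that comparison. cas had 33.5, 34.8 and 50.5 CPM after the wait, above all 3 washed libraries, with washed minus waiting at -1.32 (adjusted p = 0.341).

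Levels in the other cell groups place the values, here with all 22 libraries scaled together. RpLP2 was at 278 ± 48.7 CPM in the washed libraries (SD, n = 3), 598 ± 80.3 in the standard ones, 365 ± 34.9 in pooled neuroblasts, 391 ± 64.4 in type II neuroblasts and 337 ± 29.4 in antennal lobe neuroblasts. In the libraries of other cell types it was at 279 ± 0.650 CPM in glia and 226 ± 9.58 in neurons, each with n = 2. Every neuroblast library outside the standard group lay at or below 446 CPM, and the standard libraries lay at or above 531. Ribosomal protein genes took 5.55 ± 0.557% of gene counts in pooled, 5.09 ± 0.731% in type II and 4.29 ± 0.414% in antennal lobe neuroblasts (SD, n = 3), against 7.46% in the standard mushroom body libraries. The washed libraries lay within the range of those 3 groups, 3.92 to 6.17%, and the standard libraries above it.

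Hsp26 was spread widely in pooled neuroblasts, from 322 to 1143 CPM, and stood at 452 ± 128 in antennal lobe and 969 ± 111 in type II neuroblasts. The level of shn was 526 ± 59.0 CPM after the washes, 442 ± 40.6 in antennal lobe neuroblasts, 275 ± 50.2 in the standard mushroom body libraries, 209 ± 18.8 in type II and 193 ± 55.5 in pooled neuroblasts, each with n = 3. In the 2 glial libraries it was 831 ± 195 CPM. For sna the washed libraries, at 304 to 432 CPM, overlapped only type II neuroblasts, at 159 to 320 CPM, among the other groups. These differences between cell groups were not tested here.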

How the data were processed

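The libraries measured RNA of about 100 sorted cells each. The deposited table holds whole-number counts per gene, and a second table the authors deposited holds TPM. Per the submitters' processing notes the aligners named were STAR 2.4.0i and Bowtie2 2.1.0, beside the counter HTSeq 0.6.1p1, the trimmer cutadapt 1.7.1 and CASAVA, and the coordinates printed are dm3. Spike-in rows, HTSeq summary rows and a blank row of at most 6 counts per mushroom body library stayed out of library sizes. Ambiguous reads were 1.22 to 1.39% of counts. Counts of the 9 mushroom body libraries were fitted with edgeR 4.0.16 in R 4.3.3 (filterByExpr, TMM scaling, robust quasi-likelihood test, 6 residual degrees of freedom, Benjamini-Hochberg adjustment over 8766 genes), and genes with an adjusted p below 0.05 were called. The SE is the log2 change divided by the square root of F. Single values per library were compared by exact two-sided permutation tests. Alternatives used DESeq2 1.42.0, limma 3.58.1 on log2(TPM + 1), other filters and scalings, and fits without each library. ERCC scaling used spike-in counts multiplied by cell number as library size, so that gene counts were taken per spike-in count and per cell. Counting error was not added to the spread between libraries.

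Genes were named if given for the comparison (RpLP2, Hsp26, shn), if among the 12 largest changes in a direction with no overlap and at least 20 CPM in the higher group, if among up to 6 called members of a list, if cell type markers, or if among the 3 genes with most counts. The genes of interest and the lists were chosen with earlier results of these data known. The edgeR script was tested on simulated data.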

Additional observations from a re-analysis of the deposited data

How the results depend on the processing

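Log2 changes of 32 named genes were recomputed in 575 gene and setting pairs, of which 374 kept the call, 199 kept the direction but missed the threshold and 2 reversed, both with ERCC scaling (Hsp83 0.24, tsr 0.16). The kept calls include those of higher genes with ERCC scaling, which raised the median of all genes and so favoured them. That scaling gave 2126 higher and 8 lower genes, a median of 0.77 over all genes and 0.13 over ribosomal protein genes, 0 ribosomal protein genes lower, 1 heat shock gene lower, 17 neuroblast identity and 31 cell cycle genes higher, and 598 genes between washed and waiting libraries. Without a filter on low counts 38 genes were higher and 96 lower, with 5 identity factors higher and a median of 0.02 (0.0233). DESeq2 called 50 higher and 84 lower, and 18 for washed against waiting. limma on log2(TPM + 1) called 0 higher, 0 lower, 0 ribosomal protein genes and 0 in the other lists, with 703 genes at an unadjusted p below 0.05. A fit of all 22 libraries gave 0 higher and 2 lower, 1 of them ribosomal, with 480 at an unadjusted p below 0.05 and a median of 0.0299. Without robust estimation 5 identity factors were higher. RLE size factors gave 0 genes for washed against waiting. The causes were not tested.

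With the replicate number as a block (replicate block), 8 genes were higher and 32 lower, 26 of them ribosomal, 2 of the heat shock list and 1 cell cycle gene, and 0 differed between washed and waiting libraries, with 521 at an unadjusted p below 0.05. Washed and standard libraries of the same number correlated at -0.02, 0.03 and -0.06 in their deviations. With 3 libraries a group, these values cannot show whether samples of the same number share a preparation.

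Leaving out 1 library at a time gave 0 to 18 higher genes, 2 to 76 lower genes, 2 to 56 ribosomal protein genes lower, 0 to 3 heat shock genes lower, 0 to 5 identity factors higher, 0 to 2 cell cycle genes higher, medians of 0.00361 to 0.0345, and 0 to 10 genes for washed against waiting, whose alternatives were all chosen after seeing the data. Detected genes differed by 12.3 after thinning, and reads outside genes by 2.76 percentage points without CR41602, CR40677 and CR43283. Thinning was not run for reads outside genes or the ribosomal share. With 3 libraries a group, an exact test cannot go below 0.1.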
